A study of Homo sapiens with 101 samples.

Results

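Transcripts of the aminoacyl-tRNA synthetases were followed in HT1080 cells given 1 of 11 compounds. The members were chosen by name: 35 genes of 19774 with a probe set of their own, 19 for cytosolic enzymes (17 symbols ending in 1, FARSA and FARSB) and 16 for mitochondrial enzymes (symbols ending in 2). Where a gene had several probe sets, the one of highest mean signal across the arrays stood for it, and all 35 were among the 11496 genes tested, those with a mean log2 signal of at least 4 in at least 1 group.

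An aminoacyl-tRNA synthetase joins an amino acid to its matching tRNA, the step that sets the meaning of the genetic code. Most amino acids have one nuclear-encoded enzyme for the cytosol and another for the mitochondrion, while GARS1 and KARS1 each supply both places, and the mitochondrion makes its glutaminyl-tRNA through an amidotransferase. When uncharged tRNA or other stress slows translation initiation, the kinases of the integrated stress response raise the translation of ATF4, a transcription factor whose reported targets include many cytosolic synthetases, amino acid transporters and enzymes of amino acid synthesis.

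HT1080 is a human fibrosarcoma line, and every array measured total RNA of these cells. The study gave each compound at 1 dose, set by its design at a 1.5-fold rise of total p53, to ask how compounds of like p53 activation differ. The labels' abbreviations are read here in their usual sense as mitomycin C (MMC, 0.1 uM), neocarzinostatin (NCS, 10 ng/ml), hydrogen peroxide (H2O2, 100 uM), ethylnitrosourea (ENU, 2 mM), tert-butylhydroquinone (tBHQ, 200 uM), methyl methanesulfonate (MMS, 200 uM), curcumin (CUR, 10 uM), etoposide (ETP, 0.3 uM) and quercetin (QUE, 30 uM), with GAD (2 mM) and BRO (600 uM) kept as codes. All groups had 0.1% vehicle per the treatment protocol. MMC, NCS, H2O2, ENU, GAD and tBHQ were set against the group labelled DMSO_pooled, BRO, CUR, ETP and QUE against DMSO groups of their own, and MMS against MMS_CTL. What was pooled and the exposure time are not given in the sources used here. MMC and H2O2 had 5 replicates and the other 15 groups had 6, on 101 arrays, with a repeated ETP_DMSO array averaged with its first run. The labels do not describe the replicates as separate cultures, so p-values measure only the spread between these samples. All 6 markers of the line (VIM, FN1, CD44, LGALS1, TIMP1 and MMP14) were present, with group means from 9.45 to 13.2, and none of 5 markers of epithelial, blood, endothelial or liver cells reached a group mean of 4. CDKN1A and MDM2, p53 targets, were both called higher in 8 compounds. Only 1 of them was called in MMC, and neither in tBHQ or CUR, where their medians were 0.11 and 0.48 on the log2 scale. The number of arrays limits the precision, and a fall in RNA per cell and a loss of cells cannot be told apart. The libraries ETP replicate 2 and QUE replicate 2 stood apart from their groups, with median correlations of 0.946 and 0.958 to the other replicates.

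The C/EBP-ATF response element is the sequence through which ATF4 and its C/EBP partners bind many target genes, so its core, TGATGNAA, was searched on both strands from 250 bases before to 50 bases after each gene's start. The RefSeq promoter table of GRCh38.p14 matched 16 cytosolic and 14 mitochondrial members, and AARS2, LARS1, VARS1, VARS2 and YARS1 were not matched. Counted by gene, at any of its listed starts, the letters were found for 7 of 16 cytosolic members (43.8%) and 1 of 14 mitochondrial members (7.14%), beside 1217 of all 27305 genes (4.46%). Of all 35116 promoters, 3.62% held them. The windows are shown because they mark which cytosolic enzymes carry these letters, with the element in capitals, each 5′ to 3′ on the strand that reads the motif forward.
AARS1: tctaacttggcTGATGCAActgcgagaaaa
CARS1: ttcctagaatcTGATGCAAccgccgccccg
GARS1: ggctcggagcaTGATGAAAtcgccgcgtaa
IARS1: gcgcacggaggTGATGCAAcgcgctgaaaa
MARS1: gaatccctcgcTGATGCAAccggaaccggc
NARS1: tctacgctctcTGATGCAAcgccggaatcg
TARS1: gctggaccagcTGATGCAAtcgaaaggcgc
YARS2: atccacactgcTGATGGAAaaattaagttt

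The AARS1 window is chr16:70289675-70289704, the CARS1 window chr11:3057407-3057436 and the IARS1 window chr9:92293692-92293721, all on the plus strand. On the minus strand are those of GARS1 (chr7:30594834-30594863), MARS1 (chr12:57488053-57488082), NARS1 (chr18:57621804-57621833), TARS1 (chr5:33440956-33440985) and YARS2 (chr12:32756076-32756105). Among the cytosolic genes the match ran from 187 bases before the start in AARS1 to 14 bases after it in NARS1. A match is a description of letters and not of binding.

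HARS1 and HARS2, the cytosolic and mitochondrial histidyl-tRNA synthetases, are neighbours read in opposite directions from starts 85 bases apart. The stretch between them on the plus strand of chr5:140691370-140691455 is shown because it lies upstream of both genes and their transcripts differed from the controls in opposite directions in GAD. The first capital marks the start of HARS1, read leftward, and the last that of HARS2, read rightward.
HARS1 and HARS2: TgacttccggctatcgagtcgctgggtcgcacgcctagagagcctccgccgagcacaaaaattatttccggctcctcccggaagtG

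A member is called changed at a limma adjusted p under 0.05 and at least 1.5-fold, and values are log2 differences, treated minus control, ± standard error. Over the 11 comparisons 5 of 209 cytosolic values and 11 of 176 mitochondrial values were called. Among all 11496 genes the calls ran from 19 in MMC to 3011 in GAD. The member counts are therefore to be read beside the shares of all genes that follow, and not as a response of either compartment. GAD had 5 members higher (WARS1, SARS1, AARS2, MARS2 and PARS2) and 3 lower (AARS1, FARS2 and NARS2), beside 11.1% of all genes called higher and 15.0% called lower. ENU had AARS2 higher and FARS2 and NARS2 lower (4.76% and 6.11% of all genes). In MMS only AARS2 was higher (4.46%) and no member lower (6.56%), and in BRO only MARS2 was higher (2.46%) and none lower (4.93%). QUE had VARS1 and SARS2 lower (6.65%) and none higher (6.38%), and ETP had YARS1 lower (0.618%) and none higher (2.06%). Of the cytosolic members 14 of 19 were called in no comparison and 5 in 1. Of the mitochondrial members 10 of 16 were called in none, and AARS2 was called in 3.

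**Figure D1:**
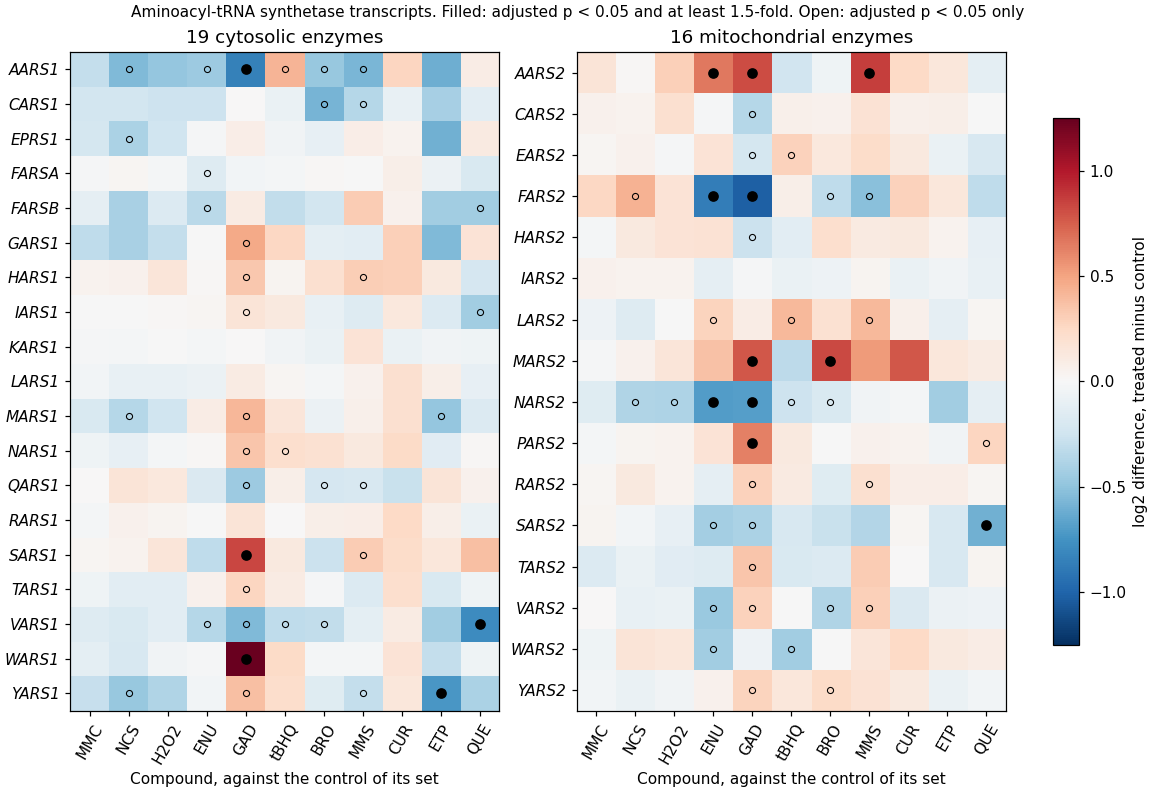
Log2 differences of the 19 cytosolic (left) and 16 mitochondrial (right) enzymes, rows, in the 11 compounds, columns, in colour from blue (lower than the control) to red (higher). Filled circles mark the 16 called values, 8 of them in GAD, and open circles an adjusted p under 0.05 at a smaller fold.

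No member was called in MMC, NCS, H2O2, tBHQ or CUR by limma. The shares of all genes called higher and lower there were 0.165% and 0% in MMC, 1.48% and 0.966% in NCS, 0.765% and 0.165% in H2O2, 5.39% and 4.44% in tBHQ, and 1.27% and 0.931% in CUR. At an unadjusted p under 0.05 these comparisons had 2, 6, 5, 6 and 6 cytosolic and 1, 2, 3, 4 and 2 mitochondrial members, in the same order, beside 6.69%, 24.3%, 15.5%, 42.1% and 24.1% of all genes. At an adjusted p under 0.05 with no fold minimum, GAD had 12 cytosolic members (9 higher and 3 lower) and 13 mitochondrial (7 higher and 6 lower), beside 61.7% of all genes. ENU had 4 cytosolic and 7 mitochondrial (33.2%), MMS 6 and 5 (35%), BRO 4 and 5 (30.2%), tBHQ 3 and 4 (31.9%) and QUE 3 and 2 (33.4%). NCS had 4 and 2 (7.70%), ETP 2 and 0 (5.08%), H2O2 0 and 1 (1.89%), MMC none (0.270%) and CUR none (5.11%). The 95% interval of the difference lay within 1.5-fold either way for 169 of 209 cytosolic and 144 of 176 mitochondrial values. Among all genes that share ran from 54.2% in GAD to 90.0% in MMC.

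The cytosolic median was 0.16 in GAD, 0.17 in CUR and 0.07 in tBHQ, and it was lowest in ETP (-0.19), NCS (-0.13), BRO (-0.10) and H2O2 (-0.09). The mitochondrial median was 0.18 in MMS, where the cytosolic median was -0.01, and lay between -0.06 and 0.07 in the other 10 comparisons. The median of all tested genes ran from -0.02 in BRO to 0.06 in MMS. Of 16 partner pairs for one amino acid, with EPRS1 in 2 of them, the cytosolic enzyme had the lower difference in 13 in NCS and H2O2, 12 in MMC, 11 in MMS, ETP and QUE, 10 in BRO, 8 in ENU, 7 in tBHQ and 6 in GAD and CUR. The 6 comparisons with DMSO_pooled share those control samples, so their values are not independent. Without the library MMS_CTL replicate 3, whose mitochondrial values were low, the mitochondrial median in MMS was 0.08 and 2 mitochondrial members were called.

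**Figure D2:**
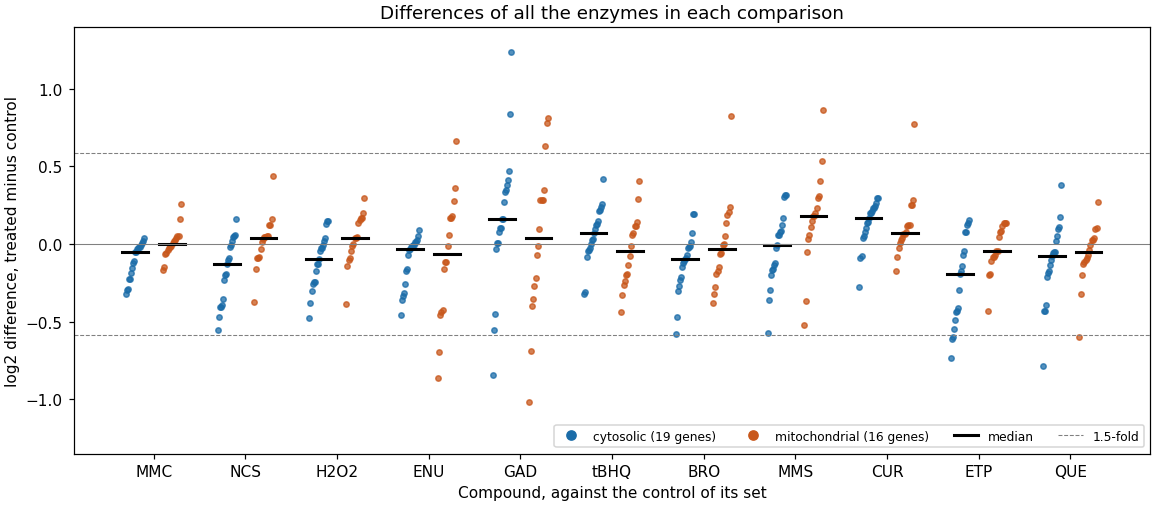
Log2 differences (y axis) of each cytosolic (blue) and mitochondrial (orange) enzyme in each compound (x axis), with the median of each compartment as a bar and dashed lines at 1.5-fold. The cytosolic median was above the mitochondrial in GAD (0.16 and 0.04), CUR (0.17 and 0.07), tBHQ (0.07 and -0.04) and ENU (-0.03 and -0.06). It was below the mitochondrial in MMS (-0.01 and 0.18), NCS (-0.13 and 0.04), ETP (-0.19 and -0.04) and H2O2 (-0.09 and 0.04). The same order held in BRO (-0.10 and -0.03), MMC (-0.05 and -0.003) and QUE (-0.08 and -0.05).

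AARS1 and AARS2, the cytosolic and mitochondrial alanyl-tRNA synthetases, moved in opposite directions in GAD. AARS1 had its lowest, median and highest log2 signal at 7.43, 7.70 and 7.86 in GAD and at 8.23, 8.47 and 8.96 in DMSO_pooled, so every treated sample was below every control. The fall was -0.85 ± 0.13 (n = 6 and 6, limma adjusted p = 8.6e-05). AARS2 was at 6.24, 6.39 and 6.66 in GAD and at 5.29, 5.66 and 5.94 in DMSO_pooled, all treated samples above all controls. It rose by 0.81 ± 0.10 (adjusted p = 1.5e-05).

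AARS2 also rose in ENU and MMS. In ENU its values were 6.04, 6.33 and 6.37, again above all controls, with a difference of 0.66 ± 0.10 (adjusted p = 2.6e-04). In MMS they were 6.26, 6.41 and 6.62 beside 5.28, 5.57 and 5.94 in MMS_CTL, a difference of 0.86 ± 0.11 (adjusted p = 8.3e-05). Of all genes 8.68% had every ENU sample above every control, and 11.1% had every MMS sample above every control. The other AARS2 probe set gave 0.56 in ENU, 0.52 in GAD and 0.68 in MMS. In QUE the AARS2 probe sets differed, with -0.59 (SE 0.06) from the other and -0.13 (SE 0.09) from the chosen one. AARS1 was lower at an adjusted p under 0.05, short of 1.5-fold, in the same compounds (ENU -0.45 ± 0.13, MMS -0.57 ± 0.08) and in NCS (-0.55 ± 0.13) and BRO (-0.47 ± 0.10), with 5 or 6 of 6 treated samples below every control in each. With every array set to an equal median, AARS1 passed 1.5-fold in MMS (-0.64). It also passed in MMS without MMS replicate 4 or MMS_CTL replicate 2 or 5 (-0.62 to -0.60) and in NCS without NCS replicate 6 or DMSO_pooled replicate 1, 2 or 3 (-0.61 to -0.60). In tBHQ the order of the pair was turned, with AARS1 at 0.42 ± 0.14 (adjusted p = 0.037) and AARS2 at -0.23.

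Within the samples set against DMSO_pooled the treated groups were compared with each other directly, in 1 limma fit of all groups. AARS2 was higher in GAD than in MMC, NCS, H2O2 and tBHQ, by 1.05 ± 0.10 over tBHQ (adjusted p = 3.6e-16), while ENU minus GAD was -0.15 ± 0.10 (adjusted p = 0.20). AARS1 was lower in GAD than in tBHQ by -1.27 ± 0.15 (adjusted p = 2.8e-12).

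**Figure D3:**
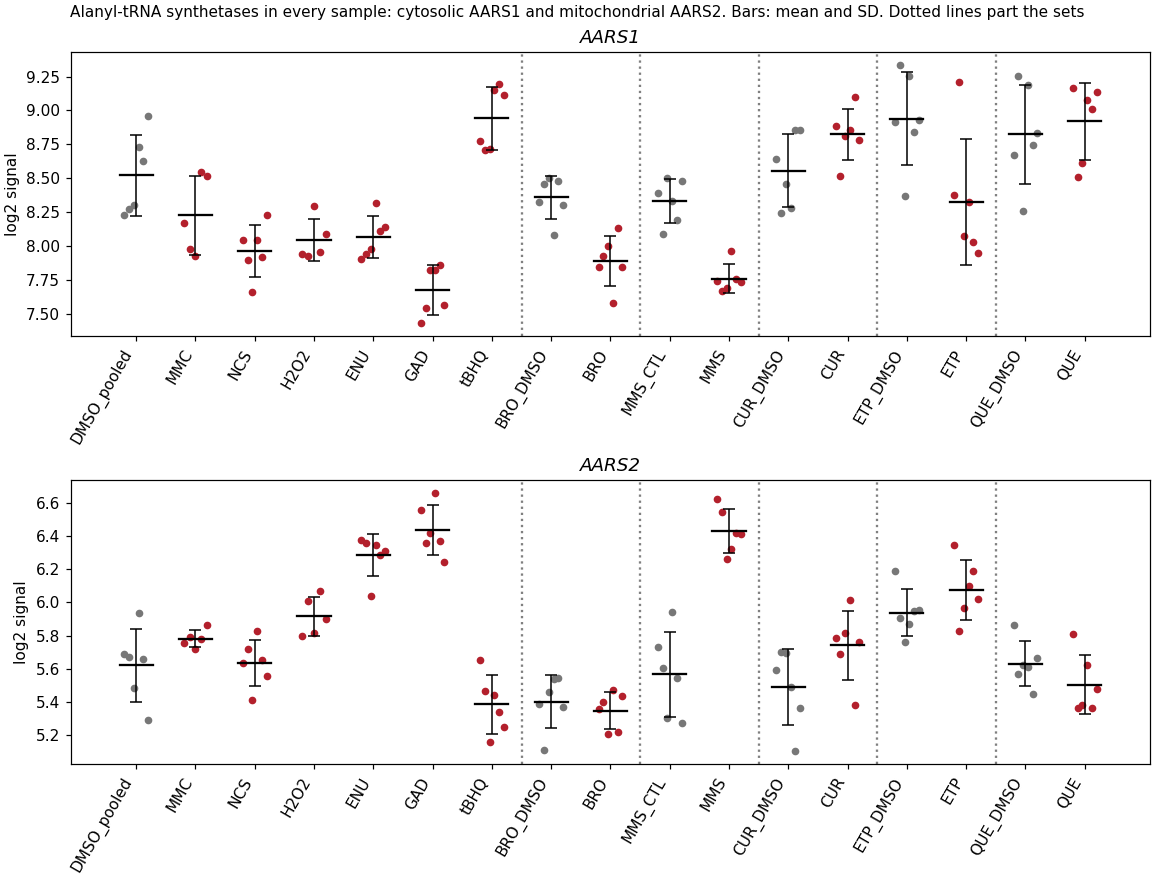
Log2 signal (y axis) of AARS1 (top) and AARS2 (bottom) in every sample by group (x axis), with red points for treated and grey for control samples, bars for the mean and SD, and dotted lines between the sets. AARS1 is below and AARS2 above all controls in GAD, and the same holds in MMS.

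WARS1 and SARS1, the cytosolic tryptophanyl- and seryl-tRNA synthetases, rose in GAD. WARS1, which interferon is known to induce, was at 9.50, 9.66 and 9.93 in GAD and at 8.02, 8.48 and 8.86 in DMSO_pooled. All treated samples were above all controls, and the rise was 1.24 ± 0.16 (2.36-fold, adjusted p = 1.9e-05), with 1.04 from another of its probe sets. SARS1 was at 10.1, 10.3 and 10.4 in GAD and at 9.12, 9.42 and 9.77 in the controls, without overlap, a rise of 0.84 ± 0.10 (adjusted p = 9.4e-06). In the fit of all groups the WARS1 difference in GAD was above that of each of the other 10 compounds, the closest being tBHQ (1.00 ± 0.16 higher in GAD, adjusted p = 9.6e-08). For SARS1 the same held for 9 of 10, and GAD exceeded QUE by 0.46 ± 0.20 (adjusted p = 0.051).

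Their mitochondrial partners had differences below 0. WARS2 had a difference of -0.07 in GAD and SARS2, whose group means were near 5, -0.40 ± 0.11 (adjusted p = 0.0057). A further 7 cytosolic members were higher in GAD at an adjusted p under 0.05 and short of 1.5-fold, each with all 6 treated samples above all controls: GARS1 (0.47 ± 0.11), MARS1 (0.41 ± 0.07), YARS1 (0.38 ± 0.09), NARS1 (0.35 ± 0.07), HARS1 (0.34 ± 0.07), TARS1 (0.27 ± 0.05) and IARS1 (0.16 ± 0.05). QARS1, the glutaminyl enzyme, and VARS1, the valyl enzyme, were lower, at -0.45 ± 0.09 and -0.55 ± 0.09. VARS1 passed 1.5-fold without GAD replicate 4 (-0.61) or DMSO_pooled replicate 3 (-0.59). Of all genes 20.7% had every GAD sample above every control and 18.4% every sample below. The same shares were 8.68% and 7.75% in ENU, 11.1% and 8.43% in MMS, and 6.69% and 7.08% in BRO. They were 4.81% and 4.80% in QUE, 2.79% and 1.67% in NCS, and 2.39% and 1.09% in H2O2.

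HARS1 was at 9.88, 9.91 and 9.97 in GAD beside 9.47, 9.52 and 9.81 in DMSO_pooled. HARS2, which shares the start region shown above, was at 7.62, 7.88 and 8.04 beside 7.94, 8.16 and 8.35, and its samples overlapped the controls. The HARS2 difference was -0.27 ± 0.08 (adjusted p = 0.014) and that of HARS1 0.34 ± 0.07 (adjusted p = 7.1e-04). In tBHQ and ETP neither passed the threshold, with HARS1 at 0.04 and 0.12 and HARS2 at -0.13 and 0.04. Both genes had differences above 0 in NCS, H2O2, ENU, BRO, MMS and CUR and below 0 in QUE. In MMC HARS1 was at 0.04 and HARS2 at -0.02. In MMS HARS1 was at 0.30 (limma adjusted p = 0.028), short of 1.5-fold, and HARS2 at 0.11.

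FARS2 and NARS2, the mitochondrial phenylalanyl- and asparaginyl-tRNA synthetases, fell in ENU and GAD. FARS2 was at 7.27, 7.47 and 7.50 in DMSO_pooled, at 6.37, 6.57 and 6.72 in ENU and at 6.20, 6.39 and 6.65 in GAD, so neither treated group reached the controls. The falls were -0.86 ± 0.07 in ENU (adjusted p = 2.8e-06) and -1.02 ± 0.09 in GAD (adjusted p = 4.7e-07). A second FARS2 probe set gave -0.86 and -0.99. With all its probe sets averaged the difference in ENU was -0.56, short of 1.5-fold. FARSA, the catalytic subunit of the cytosolic phenylalanyl enzyme, had -0.16 ± 0.06 in ENU and -0.03 in GAD.

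NARS2 was at 7.62, 7.83 and 8.03 in DMSO_pooled, at 6.95, 7.08 and 7.37 in ENU and at 6.91, 7.15 and 7.40 in GAD, again without overlap. Its differences were -0.70 ± 0.09 in ENU (adjusted p = 8.6e-05) and -0.69 ± 0.10 in GAD (adjusted p = 3.4e-05). NARS2 was below its control in 11 of 11 comparisons, from -0.70 in ENU to -0.03 in CUR, with MMS also near 0 (-0.05). The comparisons with DMSO_pooled share their controls, so these signs are not independent. In H2O2 its 5 samples were at 7.50, 7.32, 7.31, 7.49 and 7.57, all below the controls (-0.39 ± 0.09, adjusted p = 0.044), in NCS the difference was -0.38 ± 0.09 (adjusted p = 0.026), and neither reached 1.5-fold. FARS2 went the other way in NCS, at 0.44 ± 0.08 (adjusted p = 0.0060), short of 1.5-fold, with all 6 samples above the controls. Set against each other directly, FARS2 was 1.30 ± 0.11 higher in NCS than in ENU (adjusted p = 2.1e-16), and ENU minus GAD was 0.16 ± 0.11 (adjusted p = 0.25). FARS2 was also at -0.52 ± 0.13 in MMS (adjusted p = 0.0072) and at -0.32 ± 0.08 in BRO (adjusted p = 0.0088). Without the library MMS_CTL replicate 3 the MMS value of FARS2 was -0.61 and passed 1.5-fold.

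**Figure D4:**
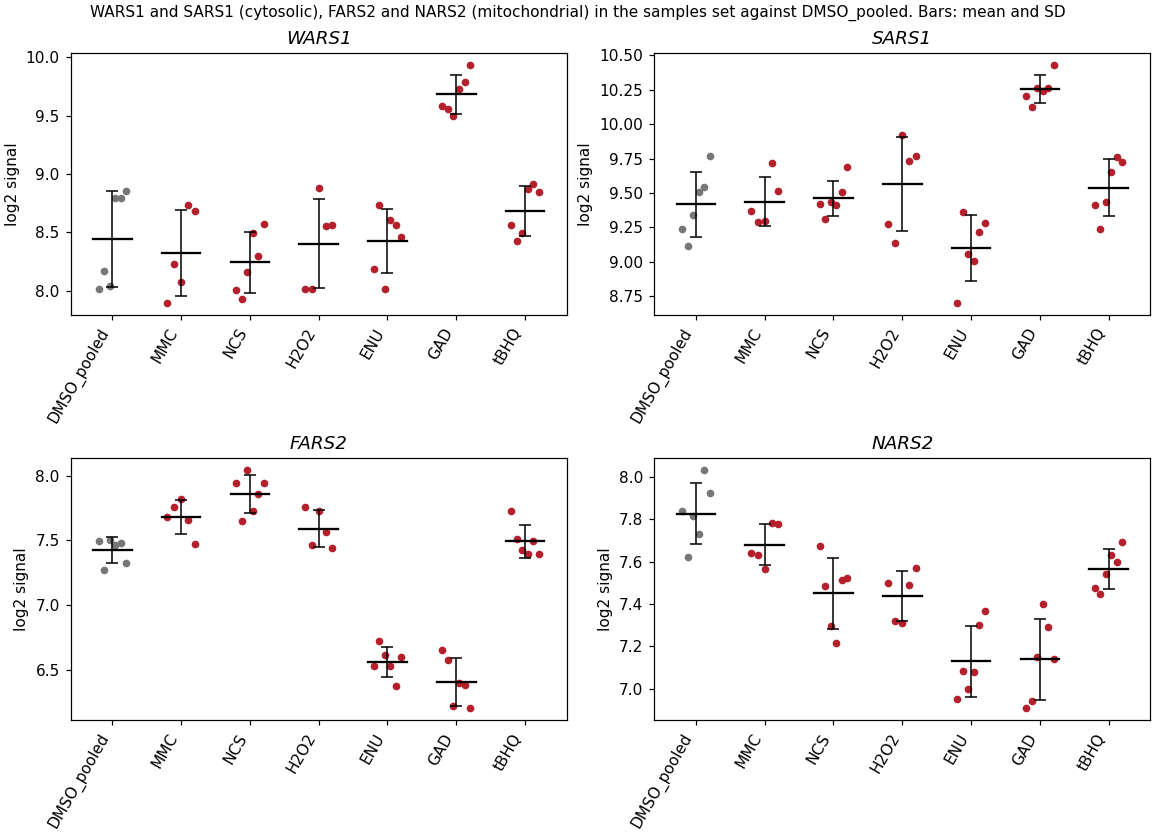
Log2 signal (y axis) of WARS1, SARS1, FARS2 and NARS2 in every sample of DMSO_pooled and the 6 compounds set against it (x axis), with bars for the mean and SD. WARS1 and SARS1 are above all controls in GAD, and FARS2 and NARS2 are below all controls in ENU and GAD.

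MARS2, PARS2 and SARS2, mitochondrial members of low signal, were called too. MARS2, the mitochondrial methionyl enzyme, was at 5.05, 5.37 and 5.74 in GAD and 4.10, 4.39 and 5.30 in DMSO_pooled, overlapping, with a rise of 0.78 ± 0.20 (adjusted p = 0.0040). In BRO it was at 4.13, 4.46 and 4.65 beside a lowest of 3.15 and a median of 3.67 in BRO_DMSO, with every treated sample above every control. That control mean is below 4, so the rise, measured at 0.82 ± 0.15 (adjusted p = 0.0013), is given as at least 1.35-fold. In CUR the MARS2 difference of 0.78 ± 0.32 had an adjusted p of 0.16, and 9.4e-04 once replicate numbers were blocked. Without CUR replicate 5 it was 1.01 (adjusted p = 0.029).

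PARS2, the mitochondrial prolyl enzyme, was at 4.78, 5.16 and 5.35 in GAD beside 4.29, 4.41 and 4.98, a rise of 0.63 ± 0.13 (adjusted p = 7.3e-04) with 5 of 6 samples above the controls. EPRS1, which carries the glutamyl and prolyl activities of the cytosol in 1 protein, had 0.08 ± 0.09 there. SARS2 was at 4.34, 4.46 and 4.87 in QUE beside 5.07, 5.13 and 5.13 in QUE_DMSO, and it fell by 0.60 on the log2 scale (SE 0.08, adjusted p = 0.0012). The fall was under 1.5-fold without QUE replicate 3 (-0.56) or QUE replicate 6 (-0.58).

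QUE also lowered VARS1, at 6.22, 6.45 and 7.05 beside 6.96, 7.27 and 7.69 in QUE_DMSO, where 1 treated sample lay among the controls. The difference was -0.78 ± 0.15 (adjusted p = 0.0042). Its other probe set had means near 4 in both groups (3.90 and 4.01), the level of the low-signal filter, and gave -0.12. With both averaged the difference was -0.45, short of 1.5-fold. VARS1 was below its control in 10 of 11 comparisons, CUR being the other, and those with DMSO_pooled share their controls, so the signs are not independent. FARSB (-0.43 ± 0.11) and IARS1 (-0.43 ± 0.11) were lower in QUE with all samples below the controls, short of 1.5-fold. Every QUE sample lay below every control in 4.80% of all genes. Without the library QUE replicate 2 the calls numbered the same, 1 cytosolic and 1 mitochondrial.

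ETP had the lowest cytosolic median, -0.19, and 1 call. YARS1, the cytosolic tyrosyl enzyme, was at 8.46, 8.78 and 9.08 in ETP and at 8.99, 9.56 and 9.81 in ETP_DMSO, with 5 of 6 treated samples below every control. The fall was -0.73 ± 0.15 (adjusted p = 0.013), and -0.56 in another probe set. AARS1 (-0.61 ± 0.21, adjusted p = 0.12), GARS1 (-0.55 ± 0.20, adjusted p = 0.13) and EPRS1 (-0.60 ± 0.30, adjusted p = 0.29) did not pass the threshold, and in EPRS1 1 sample at 8.96 lay far from the other 5, at 10.3 or more. Without the library ETP replicate 2, whose AARS1 and GARS1 signals were high for its group, 3 cytosolic members were called, with AARS1 at -0.79 and GARS1 at -0.70. The mitochondrial members had no call in ETP with or without it.

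**Figure D5:**
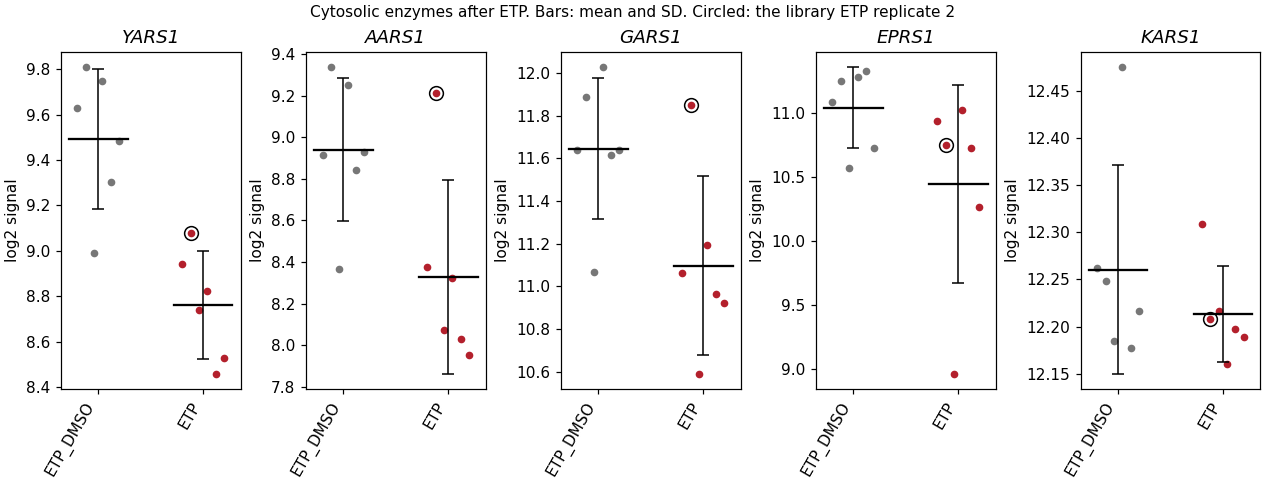
Log2 signal (y axis) of YARS1, AARS1, GARS1, EPRS1 and KARS1 in the 6 ETP_DMSO (grey) and 6 ETP samples (red), with bars for the mean and SD and the library ETP replicate 2 circled. It lies among the controls in AARS1 and GARS1, and the KARS1 groups overlap.

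A few members varied little in their chosen probe sets. KARS1, the lysyl enzyme, stayed between -0.09 in BRO and 0.17 in MMS, IARS2 between -0.11 and 0.05, FARSA between -0.19 and 0.08 and LARS1 between -0.10 and 0.20. Another LARS1 probe set ranged more widely, from -0.74 in NCS (SE 0.29) to 0.38 in QUE (SE 0.31). The other KARS1 probe set ran from -0.18 in tBHQ (SE 0.04) to 0.05 in MMS (SE 0.03). The other FARSA probe set ran from -0.29 in QUE (SE 0.07) to 0.15 in H2O2 (SE 0.09). Other members with no call ranged more widely, VARS2 from -0.46 in ENU to 0.30 in MMS, FARSB from -0.43 in QUE to 0.32 in MMS and WARS2 from -0.44 in ENU to 0.25 in CUR. CARS1, the cytosolic cysteinyl enzyme, was lower in BRO (-0.58 ± 0.09, adjusted p = 4.6e-04), short of 1.5-fold, and passed it without BRO replicate 1, 2 or 5 or BRO_DMSO replicate 4 or 6 (-0.64 to -0.59). An F test that all 11 differences of a gene are equal, in the fit of all groups, was passed at an adjusted p under 0.05 by 15 of 19 cytosolic and 16 of 16 mitochondrial members, beside 84.7% of all genes. EPRS1, KARS1, LARS1 and FARSA did not pass it. Between ENU and GAD directly, 13 cytosolic and 10 mitochondrial members differed (50.0% of all genes), and between GAD and tBHQ 9 and 12 (57.4%). Among these, VARS2, the mitochondrial valyl enzyme, was 0.75 lower in ENU than in GAD (-0.75 ± 0.07, adjusted p = 4.6e-15), as were SARS1 (-1.15 ± 0.14, adjusted p = 3.1e-11) and WARS1 (-1.26 ± 0.16, adjusted p = 1.9e-10).

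The cytosolic enzymes were also grouped by structure. The 7 members that belong to the multi-synthetase complex (EPRS1, IARS1, KARS1, LARS1, MARS1, QARS1 and RARS1) were called in no comparison, with medians from -0.09 in BRO to 0.13 in CUR. That count depends on the setting, since MARS1 was called in GAD with its probe sets averaged (0.61, adjusted p = 8e-07) and EPRS1 in ETP in the fit of all groups (-0.60, adjusted p = 0.024). On their own the MARS1 probe sets gave 0.41, 0.47 and 0.96 in GAD, the last from a probe set with a mean signal of 4.45. The EPRS1 value includes ETP replicate 3 at 8.96, far from the other samples, and its other probe sets gave -0.29 and -0.81. At an adjusted p under 0.05, 2 of them were higher and 1 lower in GAD. AIMP1, a scaffold protein of that complex, had 0.45 in GAD, short of 1.5-fold. The 9 class I enzymes, with a Rossmann fold, and the 9 class II enzymes had medians of 0.16 and 0.27 in GAD and of -0.30 and -0.14 in ETP.

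The 13 cytosolic members reported as ATF4 targets had a median of 0.27 in GAD and the other 6 of 0.05. In ETP these medians were -0.41 and 0.01, in NCS -0.20 and 0.04 and in CUR 0.20 and 0.06. In MMS and ENU they were -0.12 and 0.13, and -0.02 and -0.10. The 7 members with the motif letters had a median of 0.27 in GAD and the 9 matched members without them 0.10, and -0.41 and -0.05 in ETP. Carriers had the higher median also in ENU, tBHQ and CUR, and the lower in MMC, NCS, H2O2, BRO, MMS (-0.16 and 0.09) and QUE. In GAD 1 carrier was called lower and none higher, while the 2 cytosolic members called higher, WARS1 and SARS1, had no match in the stretches searched. AARS1 carries the letters, and in GAD it fell while the other 6 carriers had differences from 0.01 to 0.47.

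ATF4 itself rose in GAD (0.68 ± 0.08, adjusted p = 6.6e-06) and was higher, short of 1.5-fold, in tBHQ (0.55 ± 0.09), ENU (0.49 ± 0.09) and QUE (0.53 ± 0.16, adjusted p = 0.025). Of 11 other targets of the integrated stress response, 7 rose and 2 fell in GAD, with a median of 0.99. In ENU 4 rose and 2 fell, in tBHQ 3 rose, in QUE 5 rose, and in MMS 1 rose and 5 fell. Of all genes 11.1% were called higher and 15.0% lower in GAD, and 4.76% and 6.11% in ENU. These shares were 5.39% and 4.44% in tBHQ, 6.38% and 6.65% in QUE, and 4.46% and 6.56% in MMS. TRIB3, a pseudokinase, rose in GAD (1.07 ± 0.14), tBHQ (1.28 ± 0.16) and QUE (0.84 ± 0.25). DDIT3, the factor CHOP, rose in GAD (0.99 ± 0.24), ENU (0.94 ± 0.21) and tBHQ (1.09 ± 0.29) and fell in MMS (-0.80 ± 0.15). CHAC1, a glutathione-degrading enzyme, was called in GAD, where its controls were under 4 and the rise was at least 0.24 on the log2 scale, and in MMS, where both groups were under 4 and no fold is given.

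Of 11 amino acid synthesis genes 5 rose in GAD and none fell, 3 fell in NCS and 3 in BRO. Beside these, 11.1% of all genes were called higher and 15.0% lower in GAD, 0.966% lower in NCS and 4.93% lower in BRO. ASNS, which makes asparagine, rose in GAD (1.42 ± 0.25), CUR (1.28 ± 0.34, adjusted p = 0.049) and MMS (0.63 ± 0.16), fell in NCS (-1.47 ± 0.31) and BRO (-0.87 ± 0.26), and was at -1.47 ± 0.54 in ETP (adjusted p = 0.14). Of 8 amino acid transporters 3 rose in GAD (11.1% of all genes), 4 rose in tBHQ (5.39%) and 4 fell in NCS (0.966%). SLC7A11, the cystine carrier, rose by 3.27 ± 0.18 in GAD and by 2.90 ± 0.18 in tBHQ. CUR raised SLC7A11 (1.87 ± 0.25) and ASNS with no cytosolic synthetase called, beside 1.27% of all genes called higher. The cytosolic median in CUR was 0.17, and 16 of 19 members had differences above 0.

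Of 7 genes that work with charged tRNA, PSTK, which makes the precursor of selenocysteinyl-tRNA, rose in GAD (0.85 ± 0.09) and ENU (0.59 ± 0.08) and fell in QUE (-0.82 ± 0.23). SEPSECS, which acts after it, and XPOT, which exports tRNA from the nucleus, fell in QUE too (-0.99 ± 0.26 and -0.94 ± 0.14), and XPOT fell in ETP (-0.67 ± 0.14). None of 9 cytosolic translation factors was called in any comparison, and of 8 mitochondrial translation factors only MTIF2 was, lower in QUE (-0.64). The share of all genes called in 1 direction ran from 0% (lower in MMC) to 15.0% (lower in GAD), and 6.65% were lower in QUE. Of 8 proliferation genes 6 fell in QUE, 5 in tBHQ, 4 each in NCS and GAD, and 3 each in H2O2, ENU, BRO and ETP. None fell in MMC, MMS or CUR. The shares of all genes called lower were 6.65% in QUE, 4.44% in tBHQ, 0.966% in NCS, 15.0% in GAD and 0.165% in H2O2. They were 6.11% in ENU, 4.93% in BRO, 0.618% in ETP, 0% in MMC, 6.56% in MMS and 0.931% in CUR. The part of the proliferation genes in the synthetase values was not tested.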

How the data were processed

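RNA of HT1080 cells was measured on Affymetrix HT HG-U133+ PM arrays. The authors deposited log2 signals per probe set. Partek and GCRMA are named in the submitters' processing notes, and their versions are not given in the sources used here. Nothing was renormalized. Of 54613 probe sets that are not controls, 40914 were tied to 1 gene by the annotation, and symbols were updated through gene IDs to the GRCh38.p14 list. Each compound was compared with its own control by limma 3.58.1 (R 4.3.3, package data.table in version 1.17.8) on the genes with a group mean of at least 4, with Benjamini-Hochberg adjustment over all 11496. Sets may have been normalized apart, so levels were compared within a set only. The ETP_DMSO array labelled 2-2 was averaged with replicate 2 (SD of their difference 0.154, next closest pair 0.242). Same-numbered treated and control samples deviated together (every r over 0.1) in all comparisons but MMS and ETP, which came from the data and not from the labels. Members named are those called, with up to 5 in each direction, those called in 3 comparisons with their sample values, all members where a group is described, up to 4 genes of a pathway list, and ATF4, DDIT3, ASNS, CHAC1, TRIB3, XPOT, CDKN1A and MDM2. Members and lists were chosen with earlier results of these data known. A list is described by counts and medians with no test. Alternatives were no filter, averaging each gene's probe sets, an equal median per array, the replicate block, 1 fit of all groups, no fold minimum, leaving out array 2-2 and leaving out each replicate. Every probe set on its own was added after seeing the data. The scripts were tested on simulated data. Of the listed genes 5, none of them a member, were not analysed here. Promoters came from RefSeq, and figures were drawn with Python 3.11.15, pandas 2.3.3, numpy 2.4.6 and matplotlib 3.10.9.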

Additional observations from a re-analysis of the deposited data

Results flagged for a closer look

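A sample is given here where its gap to the nearest other sample was a large part of its group's range. Of 63 groups tested 4 were past the critical value, and chance flags about 1 in 20 groups. The median log2 signal of the cytosolic enzymes was 10.58 (10.5756) in ETP_DMSO replicate 3, and 10.7 to 10.8 in the other 5. The mitochondrial median was 6.67 (6.6668) in MMS_CTL replicate 3, and 7.06 to 7.15 in the others. AARS2 was at 6.04 (6.0387) in ENU replicate 3, and at 6.28 to 6.37 in the others. SARS2 was at 5.07 (5.0748) in QUE_DMSO replicate 4, and at 5.12 to 5.13 in the others.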

How the results depend on the processing

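All 16 called values, in 11 members, kept their call without the filter, with an equal median per array, with the replicate block and in 1 fit of all groups, and none changed direction under any alternative run. When a gene's probe sets were averaged, FARS2 in ENU and VARS1 in QUE were under 1.5-fold and MARS1 in GAD passed it (0.61). The FARS2 and VARS1 averages include probe sets with mean signals of 2.31 and 3.52, under the filter level. With this averaging 0 cytosolic members were called in QUE and the mitochondrial median there was -0.0794. With no fold minimum the counts, cytosolic and mitochondrial, were 4 and 2 in NCS, 0 and 1 in H2O2, 4 and 7 in ENU, 12 and 13 in GAD, 3 and 4 in tBHQ, 4 and 5 in BRO, 6 and 5 in MMS, 2 and 0 in ETP and 3 and 2 in QUE. With an equal median per array MMS had 1 cytosolic and 2 mitochondrial calls and a mitochondrial median of 0.1111. The replicate block gave 1 mitochondrial call in CUR (MARS2) and 2 cytosolic calls in ETP, where the numbers are not shown to pair the samples, and changed no other count. One fit of all groups gave 1 mitochondrial call in CUR and 3 cytosolic calls in ETP. The cause of these changes was not tested. Leaving out each replicate, the cytosolic calls ran from 0 to 1 in NCS (AARS1), BRO (CARS1) and MMS (AARS1), from 1 to 3 in ETP and from 3 to 4 in GAD (VARS1). The mitochondrial calls ran from 1 to 2 in MMS and from 0 to 1 in CUR and QUE. The cytosolic median in ENU ran from -0.0819 to -0.0091, and the mitochondrial median from 0.076 to 0.2189 in MMS and from -0.0787 to -0.026 in QUE. PARS2, MARS2 and SARS2 had group means near 5 or below, where signal over background limits the measurement. MMC, H2O2, CUR, NCS and ETP had the fewest calls over all genes (19, 107, 253, 281 and 308), and a small change of a member may have been missed there.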
